A study of Rattus norvegicus with 32 samples.

Results

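Lysozyme, receptor adaptor and complement genes that macrophages express were followed rat by rat in the muscle of obese and lean Zucker rats. Of 10 listed genes (Lyz2, Fcer1g, Tyrobp, C1qa, C1qb, C1qc, Cd68, Cd163, Mrc1 and Csf1r), 8 had a feature on the array annotated to that symbol alone, and these 8 of the 14557 genes with such a feature are described. Each had 1 such feature. Cd163 and Mrc1 were not analysed here. RNA from the red, more oxidative part of the tibialis anterior, a hindlimb muscle, was measured on 1 Affymetrix array per rat in 32 male rats, 18 weeks old after 12 weeks of feeding. The 8 lean control rats (genotype Zucker lean) and the 8 obese control rats (Zucker obese) had free access to AIN-93G, a purified rodent diet. The 8 obese rats of the ALA group ate AIN-93G with 10% flaxseed oil, rich in alpha-linolenic acid, and the 8 obese rats of the LA group ate AIN-93G with 10% safflower oil, rich in linoleic acid. Both oil groups were pair-fed to the intake of the obese controls, no lean rats received an oil, and obese Zucker rats have obesity from an inherited defect of leptin signalling. Levels are log2 intensities after RMA, so a difference of 1 is a 2-fold difference in intensity, and the level of one gene's feature is not set against another's.

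Skeletal muscle holds resident macrophages between its fibres and recruits monocytes when it is injured. Macrophages take up coated particles through Fc receptors, which signal through adaptor chains with tyrosine motifs, and digest them in lysosomes. They also secrete lysozyme, which cleaves bacterial cell walls, and C1q, the recognition unit of the classical complement pathway, built from A, B and C chains. Survival of most tissue macrophages depends on the receptor for colony stimulating factor 1. In a whole muscle sample, fewer cells of a type and less RNA per cell cannot be told apart.

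Upstream sequence was available from RefSeq (GRCr8) for 5 of the 8 genes, Lyz2, C1qa, C1qb, Cd68 and Csf1r. The 250 bases before the annotated start are printed for Lyz2, C1qb and Csf1r, because these were the members called in at least 1 comparison below. Capitals mark GAGGAA, a core sequence bound by PU.1, the transcription factor of the myeloid lineage, or its complement TTCCTC.
Lyz2, chr7:54798012-54798261, minus strand: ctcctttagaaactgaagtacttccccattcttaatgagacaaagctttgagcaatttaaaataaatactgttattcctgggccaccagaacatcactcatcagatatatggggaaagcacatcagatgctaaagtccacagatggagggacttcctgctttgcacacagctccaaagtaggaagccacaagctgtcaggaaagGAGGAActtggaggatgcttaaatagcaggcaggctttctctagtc
C1qb, chr5:154407828-154408077, minus strand: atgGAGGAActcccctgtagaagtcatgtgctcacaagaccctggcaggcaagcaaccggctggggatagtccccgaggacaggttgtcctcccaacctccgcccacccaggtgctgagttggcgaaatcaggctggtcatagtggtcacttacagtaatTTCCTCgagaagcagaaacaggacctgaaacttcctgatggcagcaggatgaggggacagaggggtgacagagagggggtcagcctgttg
Csf1r, chr18:56834129-56834378, plus strand: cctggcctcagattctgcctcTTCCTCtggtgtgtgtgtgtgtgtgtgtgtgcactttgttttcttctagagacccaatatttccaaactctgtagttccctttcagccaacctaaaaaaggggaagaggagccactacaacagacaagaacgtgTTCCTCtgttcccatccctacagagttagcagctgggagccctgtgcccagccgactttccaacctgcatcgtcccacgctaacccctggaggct
On either strand GAGGAA occurred upstream of 4 of the 5 genes, all except C1qa, and in 23.3% of the same 250 bases of all 33469 promoters in the table. The Lyz2 match began 46 bases before the start, those of C1qb 247 and 90 bases, and those of Csf1r 229 and 95 bases. A second core of the same factor family, GGAAGT, occurred upstream of 4 of the 5, all except Csf1r, against 19.2% of all promoters, and it did not overlap the capitals. The AP-1 sequence TGANTCA occurred upstream of Cd68 alone, against 6.3% of all promoters. The matches are descriptions of sequence, and no binding was measured.

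The samples held muscle on every array, with Acta1, skeletal actin, between 12.46 and 12.75 and Ckm, muscle creatine kinase, between 12.33 and 12.52. The T cell genes Cd3e, Cd3g and Cd2 lay below 3.35, the level under which the dimmest 25% of genes were left out, on all 32 arrays, as did the neutrophil genes S100a8 and Cxcr2. The genes of these lists above that level on every array were Cd4, Cd8a and Nkg7 of lymphocytes and Mmp9, Camp, Csf3r and Elane of neutrophils. Cd4, Cd8a and Nkg7 were all lower in ALA than in LA rats, with a median of -0.32, and none was called by limma (smallest adjusted p = 0.491). All 8 genes described here were bright enough to be tested, among 10918 genes. Some rats stood apart in other genes. Obese controls 4 and 7 had means of 7.27 and 7.43 over 8 genes of myogenesis and denervation, lean control 2 had 7.01, LA rats 8 and 1 had 6.33 and 6.20, and the other 27 rats lay between 5.16 and 5.68. LA rat 7 had the highest means of the LA group for fibroblast genes (8.52) and adipocyte genes (6.03). The main results for the members and lists are given with and without obese controls 4 and 7 and LA rats 7 and 8. These 4 rats were fixed at the outset and not by a cutoff on the values above. Lean control 2, LA rat 1 and obese control 5 were kept in these settings. Obese control 5 had a mean of 8.72 over 4 liver transcripts, against a group median of 3.64. With obese controls 4 and 7 left out, it was the highest obese control for Lyz2, Fcer1g, C1qa, C1qb and Cd68. It was not the highest for Tyrobp, C1qc and Csf1r. The part of liver RNA in its levels was not tested. Lean control 2 was the highest lean control for Lyz2, Fcer1g, Tyrobp and Cd68. All groups share 1 estimate of the spread, so leaving out rats of a group that a comparison does not use leaves its difference as it is but changes its adjusted p.

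Mean levels of the genes were higher in obese controls and in obese rats fed LA than in lean controls, and those of the ALA group lay near the lean level. For C1qa and C1qc the obese controls lay just as near it. They exceeded lean controls by 0.10 and 0.07, and ALA rats did so by 0.11 and 0.13. Without obese controls 4 and 7 the median difference of obese from lean controls was 0.11, with 7 genes higher and 1 lower. Against lean controls all 8 members were higher in obese controls, by a median log2 difference of 0.36, where the median of all genes tested was 0.00. Genes count as called below when limma gave an adjusted p under 0.05 (Benjamini-Hochberg, over all genes tested). Of the 8, only Lyz2 was called in this comparison, where 0.43% of all genes were called higher, and 4 were higher at an unadjusted p below 0.05 (Lyz2, Tyrobp, Csf1r and Fcer1g), against 5.77% of all genes. In LA rats all 8 were again higher than in lean controls, with a median of 0.56. Of these, 3 were called (Csf1r, Lyz2 and C1qb), where 0.687% of all genes were called higher, and all except Cd68 were higher at an unadjusted p below 0.05, against 5.62%. In ALA rats 6 were higher and 2 lower than in lean controls, with a median of 0.06, and none was called by limma, where 0.888% of all genes were called in either direction, or reached an unadjusted p below 0.05, against 9.32% in either direction.

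Among the obese groups no member was called by limma, and neither was any other gene, although 918 genes for ALA against obese control, 682 for LA against obese control and 758 for ALA against LA had an unadjusted p below 0.05. The called share was 0% for ALA against obese control, 0% for LA against obese control and 0% for ALA against LA. In ALA rats 6 of the 8 were lower than in obese controls, with a median of -0.28, and 4 were lower at an unadjusted p below 0.05 (Lyz2, Fcer1g, Tyrobp and Cd68), against 4.15% of all genes. In LA rats 7 of the 8 were higher than in obese controls, with a median of 0.13, and the 3 C1q chains were higher at an unadjusted p below 0.05, against 3.45%. All 8 were lower in ALA than in LA rats, with a median of -0.49, and all except Cd68 were lower at an unadjusted p below 0.05, against 4.13%. The obese controls enter 3 of these 6 comparisons, as do each of the other groups, so the comparisons are not independent of each other.

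**Figure D1:**
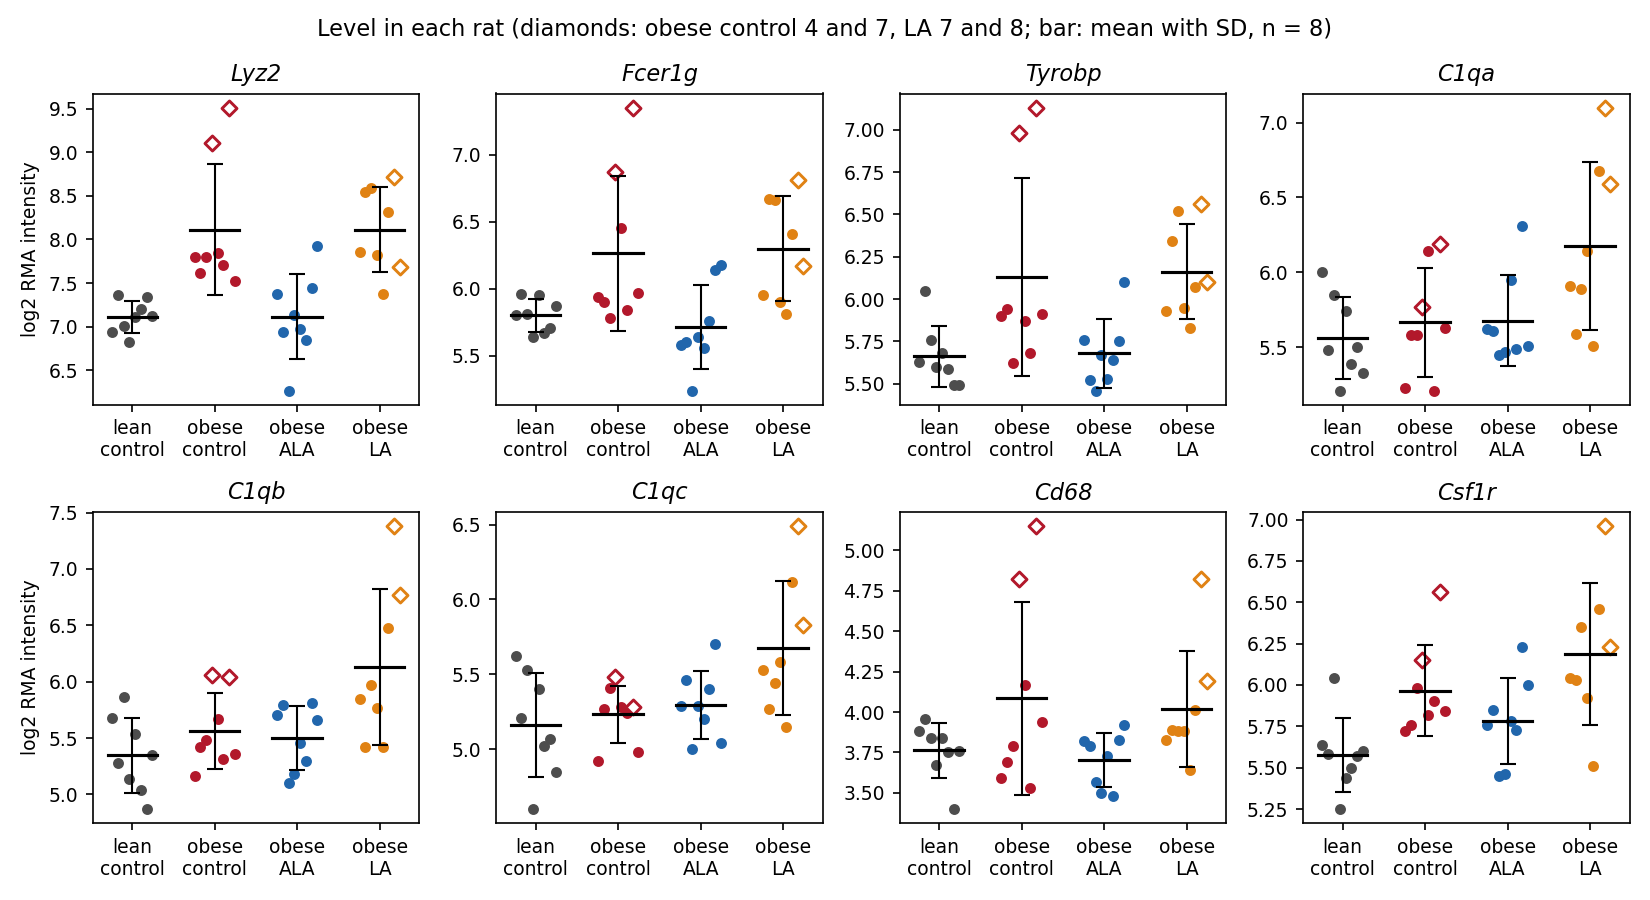
Log2 RMA intensity (vertical axis) of the 8 genes in each of 32 rats, by group, with the group mean and SD (n = 8); open diamonds are obese controls 4 and 7 and LA rats 7 and 8. Lyz2 separates the obese controls and the LA rats from the lean controls without overlap, the obese controls 4 and 7 lie far above their group in Lyz2, Fcer1g, Tyrobp and Cd68, and LA rats 6, 7 and 8 are the highest LA rats in the C1q chains.

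Lyz2 (feature 17835999), lysozyme 2, the antibacterial enzyme of macrophages and other myeloid cells, showed the widest difference of the 8 genes in 4 of the 6 comparisons and the narrowest in LA against obese control and in ALA against lean control. Its lowest, median and highest levels were 6.83, 7.11 and 7.36 in lean controls and 7.52, 7.80 and 9.51 in obese controls. They were 6.27, 7.06 and 7.93 in ALA rats and 7.38, 8.08 and 8.72 in LA rats. Every obese control and every LA rat lay above every lean control, a separation shared by 0.156% of all genes for obese controls and 0.192% for LA rats in the higher direction. Group means were 7.11 ± 0.19 (SD, n = 8) in lean controls, 8.11 ± 0.75 in obese controls, 7.12 ± 0.49 in ALA rats and 8.11 ± 0.49 in LA rats. Obese controls exceeded lean controls 2.00-fold, a log2 difference of 1.00 with a 95% interval of 0.51 to 1.49 (limma, adjusted p = 0.0209). LA rats exceeded lean controls by the same 1.00 (0.51 to 1.49, limma, adjusted p = 0.0231). With every feature of the array tested in place of 1 per gene, neither was called (limma, adjusted p = 0.0517 for obese controls and 0.059 for LA rats).

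In ALA rats Lyz2 was lower than in obese controls by a log2 difference of -0.996 (95% interval -1.49 to -0.51), with 7 of 8 ALA rats below every obese control, but the adjusted p was 0.348 in limma. Against LA rats the difference was -0.998 (-1.49 to -0.51, limma, adjusted p = 0.46), with 5 of 8 ALA rats below every LA rat. The order of the group means was lean control, ALA, obese control and LA. ALA and lean control differed by 0.00 (-0.49 to 0.49) and LA and obese control by 0.00 (-0.49 to 0.49), and both intervals held 0. ALA and obese control, also neighbours in this order, had the interval of -1.49 to -0.51 given above, which did not hold 0.

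Obese controls 4 and 7 had Lyz2 levels of 9.10 and 9.51, and the other 6 obese controls lay between 7.52 and 7.84. Without these rats the mean of the obese controls was 7.71 ± 0.12 (SD, n = 6), the difference from lean controls was 0.60 (95% interval 0.22 to 0.99) and the call was lost (limma, adjusted p = 0.12). The difference of ALA rats from obese controls shrank to -0.60 (-0.98 to -0.21, limma, adjusted p = 0.94). LA rats 7 and 8 had 8.72 and 7.69, near the top and the bottom of their group, so the LA mean changed little without them, to 8.08 ± 0.48 (n = 6). Without LA rats 7 and 8 Lyz2 was higher in LA rats than in lean controls by 0.97 (limma, adjusted p = 0.0493, and 0.00193 without all 4 rats). It was lower in ALA than in LA rats by -0.97 (limma, adjusted p = 0.863, and 0.0815 without all 4 rats). Leaving out obese control 4 alone was enough to end the call against lean controls (limma, adjusted p = 0.0568), and leaving out LA rat 7 alone ended that of LA rats against lean controls (limma, adjusted p = 0.0501).

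Fcer1g (feature 17686592) encodes the gamma chain through which Fc receptors for IgE and IgG signal. Its lowest, median and highest levels were 5.64, 5.80 and 5.96 in lean controls, 5.78, 5.95 and 7.35 in obese controls, 5.24, 5.62 and 6.18 in ALA rats and 5.81, 6.29 and 6.81 in LA rats. All groups overlapped, with 4 of 8 obese controls and 5 of 8 LA rats above every lean control, and 6 of 8 ALA rats below every LA rat. The mean in obese controls, 6.26 ± 0.57 (SD, n = 8), exceeded the lean mean of 5.80 ± 0.12 by 0.46 (95% interval 0.09 to 0.83, limma, adjusted p = 0.2). ALA rats, at 5.71 ± 0.31, were lower than LA rats, at 6.30 ± 0.39, by -0.58 (-0.95 to -0.22, limma, adjusted p = 0.491). The order was ALA, lean control, obese control and LA, and the intervals of ALA against lean control (-0.45 to 0.28) and of LA against obese control (-0.33 to 0.40) both held 0.

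Tyrobp (feature 17615249) encodes DAP12, the adaptor of TREM2 and related receptors of myeloid and natural killer cells. Its lowest, median and highest levels were 5.49, 5.61 and 6.05 in lean controls, 5.62, 5.90 and 7.13 in obese controls, 5.46, 5.66 and 6.10 in ALA rats and 5.83, 6.08 and 6.56 in LA rats. ALA rat 8, at 6.10, was the only ALA rat that reached the LA range, and 7 of 8 ALA rats lay below every LA rat. The difference of ALA from LA rats was -0.49 (95% interval -0.82 to -0.15, limma, adjusted p = 0.491) and that of obese from lean controls 0.47 (0.13 to 0.80, limma, adjusted p = 0.148).

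Among obese controls, rats 4 and 7 were the highest in both adaptors. They had 6.87 and 7.35 for Fcer1g and 6.98 and 7.13 for Tyrobp, while no other obese control exceeded 6.45 and 5.94. Without them the differences of obese from lean controls were 0.18 for Fcer1g (95% interval -0.12 to 0.48) and 0.16 for Tyrobp (-0.06 to 0.38). In LA rats 2, 3 and 7 were the highest for both adaptors, between 6.66 and 6.81 for Fcer1g and between 6.34 and 6.56 for Tyrobp. Tyrobp was higher in LA rats than in lean controls by 0.50 with all rats (limma, adjusted p = 0.123) and by 0.45 without LA rats 7 and 8 (limma, adjusted p = 0.236). The same 0.45 was called when obese controls 4 and 7, which are not in this comparison, were left out as well (limma, adjusted p = 0.0161).

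C1qa (feature 17811640), C1qb (feature 17811631) and C1qc (feature 17811636) encode the A, B and C chains of C1q and are neighbouring genes in the rat. C1qb had lowest, median and highest levels of 4.87, 5.31 and 5.86 in lean controls, 5.16, 5.45 and 6.06 in obese controls, 5.10, 5.56 and 5.81 in ALA rats and 5.42, 5.91 and 7.38 in LA rats. The first 3 of these groups overlapped widely, and LA rats 6, 7 and 8, at 6.48, 7.38 and 6.77, lay above every rat of the other groups. The LA mean of 6.13 ± 0.69 (SD, n = 8) exceeded the lean mean of 5.34 ± 0.33 by 0.79, a 1.73-fold difference (95% interval 0.37 to 1.21, limma, adjusted p = 0.0376). It exceeded the obese control mean of 5.56 ± 0.34 by 0.57 (0.15 to 0.99, limma, adjusted p = 0.629), and the ALA mean of 5.50 ± 0.28 was lower than the LA mean by -0.63 (-1.05 to -0.22, limma, adjusted p = 0.491).

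C1qa ranged from 5.21 to 6.00 in lean controls with a median of 5.49, from 5.21 to 6.19 in obese controls (5.60), from 5.45 to 6.31 in ALA rats (5.56) and from 5.51 to 7.10 in LA rats (6.02). LA rats exceeded lean controls by 0.61 (95% interval 0.24 to 0.98, limma, adjusted p = 0.0851) and obese controls by 0.51 (0.14 to 0.88, limma, adjusted p = 0.629). C1qc ranged from 4.60 to 5.62 in lean controls with a median of 5.14, from 4.92 to 5.48 in obese controls (5.27), from 5.00 to 5.70 in ALA rats (5.29) and from 5.15 to 6.49 in LA rats (5.56). LA rats exceeded lean controls by 0.51 (0.21 to 0.82, limma, adjusted p = 0.0766), and 5 of 8 LA rats lay above every obese control. Obese and lean controls differed by 0.10 for C1qa (-0.27 to 0.47), 0.22 for C1qb (-0.20 to 0.64) and 0.07 for C1qc (-0.24 to 0.38), and each interval held 0.

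The C1q differences of the LA group were smaller without LA rats 7 and 8. Without both, LA rats exceeded lean controls by 0.47 for C1qb (95% interval 0.13 to 0.82, limma, adjusted p = 0.164), by 0.39 for C1qa (0.04 to 0.74) and by 0.35 for C1qc (0.06 to 0.64). LA rat 6, which stayed in, had 6.68 for C1qa, 6.48 for C1qb and 6.12 for C1qc, the highest of the remaining LA rats in all 3 chains. Against obese controls the differences without LA rats 7 and 8 were 0.29, 0.26 and 0.28 for C1qa, C1qb and C1qc, and each interval reached below 0. Without all 4 named rats they were 0.39 (95% interval 0.03 to 0.75), 0.42 (0.09 to 0.75) and 0.33 (0.02 to 0.64), with an adjusted p of 0.998 each in limma. The call of C1qb against lean controls was also lost with every feature tested (limma, adjusted p = 0.0933), without all 4 named rats (0.0941) and without any 1 of LA rats 6, 7 and 8 or of lean controls 2, 4, 6, 7 and 8, and the adjusted p over the 16 single omissions from these groups ran from 0.0161 to 0.0864 in limma.

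Cd68 (feature 17657767), a glycoprotein of the lysosomes of macrophages, was the dimmest of the 8 features. Its lowest, median and highest levels were 3.40, 3.80 and 3.96 in lean controls, 3.53, 3.87 and 5.15 in obese controls, 3.48, 3.76 and 3.92 in ALA rats and 3.64, 3.89 and 4.82 in LA rats. Obese controls 4 and 7, at 4.82 and 5.15, and LA rat 7, at 4.82, stood above the other 29 rats. Obese and lean controls differed by 0.32 with all rats (95% interval -0.03 to 0.67, limma, adjusted p = 0.384) and by 0.02 (-0.24 to 0.28) without obese controls 4 and 7.

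Csf1r (feature 17723614), the receptor for the growth factors CSF1 and IL-34, had lowest, median and highest levels of 5.25, 5.57 and 6.04 in lean controls, 5.72, 5.87 and 6.56 in obese controls, 5.45, 5.77 and 6.23 in ALA rats and 5.51, 6.14 and 6.96 in LA rats. Lean control 3 alone among lean controls reached above the lowest obese control, and 4 of 8 LA rats lay above every lean control. LA rats, at 6.19 ± 0.43 (SD, n = 8), exceeded lean controls, at 5.58 ± 0.23, by 0.61, a 1.53-fold difference (95% interval 0.32 to 0.91, limma, adjusted p = 0.02). This call held without any 1 of the 16 rats of both groups, with adjusted p between 0.00303 and 0.0498 in limma. It was lost with every feature tested (limma, adjusted p = 0.0505) and without LA rats 7 and 8 together (0.48, limma, adjusted p = 0.078), but not without all 4 named rats (0.48, limma, adjusted p = 0.0332). Obese controls, at 5.97 ± 0.27, exceeded lean controls by 0.39 (0.10 to 0.69, limma, adjusted p = 0.169). The order was lean control, ALA, obese control and LA, and no pair of neighbours in it differed beyond its interval.

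**Figure D2:**
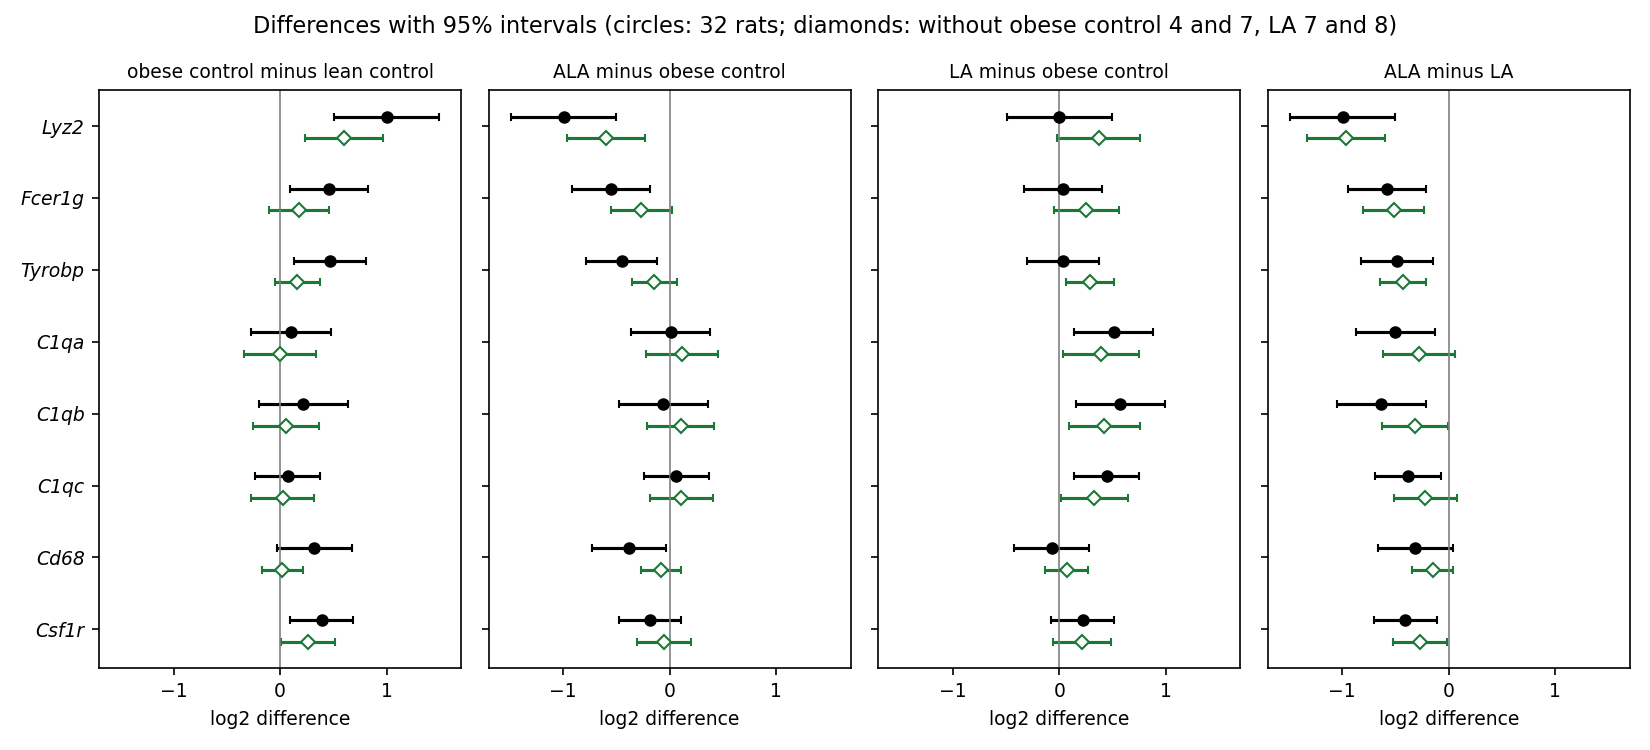
Log2 differences (horizontal axis) with 95% intervals from limma for the 8 genes in 4 comparisons, with all 32 rats (black circles) and without obese controls 4 and 7 and LA rats 7 and 8 (green diamonds). Without the named rats the differences of obese from lean controls shrink for all 8 genes, while Lyz2 stays 0.97 lower in ALA than in LA rats.

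Over the 8 genes, the named rats moved the comparisons in opposite ways. Without obese controls 4 and 7 the median difference of obese from lean controls fell from 0.36 to 0.11 and no member was called, with Lyz2 alone at an unadjusted p below 0.05. That of ALA rats from obese controls went from -0.28 to -0.07, again with Lyz2 alone at an unadjusted p below 0.05. The median difference of LA rats from obese controls rose from 0.13 to 0.38, all 8 were higher and 7 had an unadjusted p below 0.05, but the smallest adjusted p was 0.459 in limma. Without LA rats 7 and 8 that median was 0.03, with 4 members higher and 4 lower and none at an unadjusted p below 0.05. Without all 4 it was 0.31, with 8 higher and 4 at an unadjusted p below 0.05 (limma, smallest adjusted p = 0.998). The difference of ALA from LA rats stayed negative for all 8 genes without LA rats 7 and 8, with a median of -0.30.

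**Figure D3:**
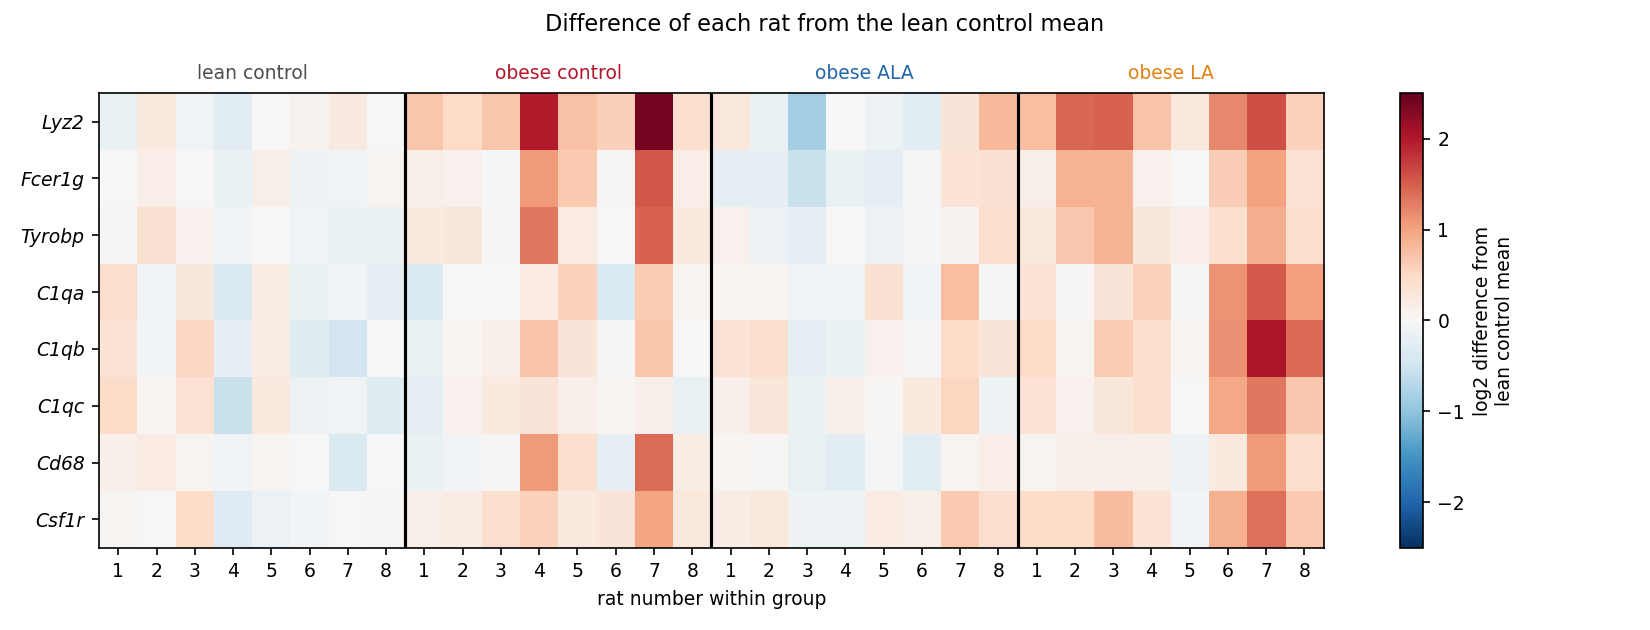
Log2 difference of each of 32 rats (columns, numbered within their group) from the lean control mean of the same gene (rows), red higher and blue lower. Obese controls 4 and 7 and LA rats 6, 7 and 8 lie above the lean mean in all genes shown. Obese controls 4 and 7 are red in Lyz2, Fcer1g, Tyrobp and Cd68, and LA rats 6, 7 and 8 in the C1q chains and Csf1r. LA rat 7 is also red in Lyz2, Fcer1g, Tyrobp and Cd68, LA rat 6 in Lyz2 and obese control 7 in Csf1r. ALA rat 3 is below the lean mean in all genes shown.

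Rats took much the same place from gene to gene, but along 2 lines. LA rat 7 was the highest LA rat for all 8 genes and LA rat 5 the lowest or tied lowest for all 8. ALA rat 3 was the lowest ALA rat for 7 of 8. For Lyz2, Fcer1g, Tyrobp and Cd68 the highest rats were lean control 2, obese control 7, ALA rat 8 and LA rat 7. For C1qa and C1qc the highest rats were lean control 1, obese control 7 for C1qa and 4 for C1qc, ALA rat 7 and LA rat 7. ALA rat 7 was also the highest of its group for C1qb and Csf1r.

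**Figure D4:**
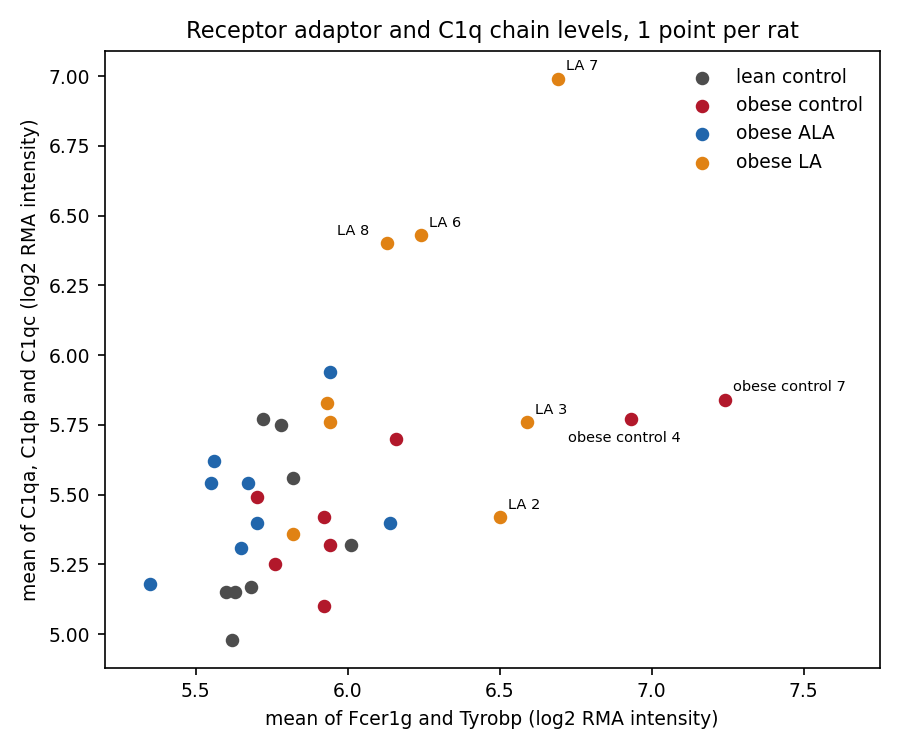
Mean log2 RMA intensity of the adaptors Fcer1g and Tyrobp (horizontal axis) against that of C1qa, C1qb and C1qc (vertical axis), 1 point per rat and coloured by group. Obese controls 4 and 7 lie far to the right, at 6.93 and 7.24, with C1q means of 5.77 and 5.84, and LA rats 6, 7 and 8 lie at the top, at 6.43, 6.99 and 6.40.

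The adaptor mean and the C1q mean put different rats on top. Obese controls 7 and 4 had ranks 1 and 2 of 32 for the adaptors, at 7.24 and 6.93, but ranks 5 and 7 for C1q, at 5.84 and 5.77. LA rats 7, 6 and 8 had ranks 1, 2 and 3 for C1q, at 6.99, 6.43 and 6.40, and ranks 3, 6 and 9 for the adaptors. LA rat 2, with rank 5 for the adaptors at 6.50, had a C1q mean of 5.42, within the range of the lean controls.

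Correlations between members were taken over the 32 rats as deviations from their group means, for 28 pairs, with 100000 permutations within groups. The 3 pairs of C1q chains had Pearson r between 0.80 and 0.85 and Spearman rho between 0.75 and 0.78, and r between 0.74 and 0.78 without the 4 named rats. The 6 pairs among Lyz2, Fcer1g, Tyrobp and Cd68, a set put together after the values were seen, had r between 0.74 and 0.90 and rho between 0.61 and 0.84, which became r between 0.39 and 0.80 without the named rats. Leaving out the 2 rats farthest from the median gave r between 0.74 and 0.80 for the C1q pairs and between 0.54 and 0.84 for the others. The 12 pairs between both sets had r between 0.23 and 0.77. Without the named rats these ran from 0.02 to 0.69, the highest being Cd68 with C1qb, and overlapped the range within the set of 4. With all 32 rats, the largest permutation p adjusted over the 28 pairs was 3.5e-05 for r within the C1q chains, 0.00062 within the set of 4 and 0.14 between them. The set of 4 was chosen from these same values, so its p is no support for it as a set. No p was computed without the named rats. All values come from the same arrays, so each pair shares the array and the piece of tissue it was made from.

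Csf1r varied most closely with C1qb, at r of 0.81, and with r of 0.74 without the named rats. Lyz2 varied most closely with Fcer1g (0.90, and 0.80 without them). Cd68 was closest to Tyrobp with all rats (0.83) but to C1qb without the named rats (0.69).

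Other macrophage genes followed the members with smaller differences. Of 34 listed, 27 were tested. Against lean controls 23 were higher in obese controls, with a median log2 difference of 0.15, and 26 in LA rats, with 0.20. Without obese controls 4 and 7, 15 were higher in obese controls and the median was 0.01, and without LA rats 7 and 8, 26 were higher in LA rats and the median was 0.13. The mean level of the 29 genes with a feature was 4.60 ± 0.08 in lean controls, and in obese controls 4.78 ± 0.32 with all 8 rats and 4.61 ± 0.09 without rats 4 and 7. In ALA rats 13 were higher and 14 lower, with a median of 0.00. All-gene medians lay within 0.01 of 0 in all 6 comparisons. In obese controls only Cx3cr1, the fractalkine receptor of monocytes and macrophages, was called (4.54 ± 0.11 against 4.22 ± 0.13, SD, n = 8, limma, adjusted p = 0.0284). In LA rats F13a1, coagulation factor XIII A of tissue macrophages (4.63 ± 0.49 against 4.02 ± 0.26, limma, adjusted p = 0.0337), and Cx3cr1 (4.53 ± 0.19 against 4.22 ± 0.13, limma, adjusted p = 0.0375) were called. Cx3cr1 in obese controls had nearly the same difference, 0.32, without rats 4 and 7 but was then not called (limma, adjusted p = 0.0616). In LA rats without rats 7 and 8 Cx3cr1 was called at 0.38 (limma, adjusted p = 0.0096), and F13a1 was not, at 0.40 (limma, adjusted p = 0.152). Without all 4 named rats Cx3cr1 was called in obese controls (limma, adjusted p = 0.0294), and Cx3cr1 and Ptprc were called in LA rats. Cx3cr1 was at 4.51 ± 0.19 in ALA rats, level with the other obese groups, and LA rat 7 had the lowest Cx3cr1 of the LA group, 4.18.

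ALA rats were lower than LA rats in 25 of the 27 macrophage genes, with a median of -0.25, and lower than obese controls in 21, with a median of -0.14, and none was called by limma in either comparison. F13a1 had the smallest p against LA rats, with a difference of -0.60 (limma, adjusted p = 0.46). LA rats were higher than obese controls in 17 of 27, with a median of 0.04. Without obese controls 4 and 7 the median of ALA rats against obese controls was -0.04, with 18 lower, and that of LA rats against obese controls 0.20, with 24 higher. Without LA rats 7 and 8 that of ALA against LA rats was -0.20, with 24 lower, and that of LA rats against obese controls 0.01, with 15 higher.

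Of 22 Fc receptor and tyrosine motif signalling genes 15 were tested and none was called by limma in any of the 6 comparisons. Their medians were 0.10 for obese against lean controls, with 12 higher, 0.13 for LA rats against lean controls, with 13 higher, and -0.13 for ALA against LA rats, with 13 lower. Without obese controls 4 and 7 the first was 0.00, with 9 higher, and without LA rats 7 and 8 the others were 0.10, with 13 higher, and -0.10, with 12 lower. Fcgr2a, an IgG receptor, was at 5.13 ± 0.23 in ALA and 5.49 ± 0.24 (SD, n = 8) in LA rats, a difference of -0.36 (limma, adjusted p = 0.491). Trem2, a lipid receptor that signals through DAP12, was at 5.47 ± 0.16 in LA rats and 5.29 ± 0.22 in obese controls, a difference of 0.18 (limma, adjusted p = 0.795).

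Among 29 further complement genes, including receptors and regulators, 11 were tested and none was called by limma in any comparison. The smallest p for obese against lean controls and for both comparisons of ALA rats with obese groups was that of Itgb2, the beta chain of the complement receptor 3. Its levels were 4.63 ± 0.17 in lean controls, 5.10 ± 0.40 in obese controls, 4.66 ± 0.26 in ALA rats and 5.08 ± 0.21 in LA rats (SD, n = 8). As for Lyz2, the lean and ALA means lay close together and below those of the obese controls and LA rats. Obese exceeded lean controls by 0.47 (limma, adjusted p = 0.0533), and by 0.30 without obese controls 4 and 7 (limma, adjusted p = 0.178). The median of the list against lean controls was 0.16 in obese controls, 0.02 without rats 4 and 7, and 0.11 in LA rats, 0.10 without rats 7 and 8. Without all 4 rats Itgb2 was called in LA rats against lean controls (0.51, limma, adjusted p = 0.005). The mean of C3 in obese controls, 5.08 ± 2.03, had that spread with a level of 10.08 in obese control 5, whose Alb, the albumin gene of liver, was at 11.83. The other 7 obese controls had Alb levels of 4.53 to 6.54.

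The ligands of CSF1R and other genes of macrophage growth had 6 tested members of 10. Csf1 reached 7.23 and Ccl2, which recruits monocytes, 8.73 in obese control 7, against group medians of 5.41 and 5.04. Neither was called by limma in obese against lean controls, where the list's median was 0.08, and -0.06 without obese controls 4 and 7. MHC class II genes did not follow the same order. Of 7 tested, 6 were lower in obese than in lean controls, with a median of -0.16, and 6 were higher in LA rats than in obese controls, with 0.21, and none was called by limma in any comparison with all rats. Without obese controls 4 and 7 these medians were -0.22, with RT1-Bb called lower (limma, adjusted p = 0.0492), and 0.27, and without LA rats 7 and 8 the latter was 0.14. Lysosomal genes had medians between -0.09 and 0.03 in the 6 comparisons, with 13 tested, and between -0.10 and 0.02 without either pair of rats. None was called with all rats, and Ctsh was called in obese against lean controls without all 4 named rats (limma, adjusted p = 0.0311).

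Markers of other cells moved with some of the same rats. Chrna1, the acetylcholine receptor subunit that rises in denervated muscle, was at 10.64 and 10.80 in obese controls 4 and 7 and between 6.00 and 7.54 in the other obese controls. Lean control 2 had a Chrna1 of 9.50, but its Lyz2, 7.36, lay below every obese control. Slc4a1 is the anion exchanger of red blood cells and the only listed red cell gene with a feature. It was at 7.29 and 6.46 in obese controls 4 and 7. In LA rats 2 and 3, which were high in Lyz2 and both adaptors, it was at 6.50 and 7.12. LA rat 7, the highest LA rat for Lyz2 and both adaptors, had a Slc4a1 of only 5.04, and LA rat 6 had 5.53. Obese control 8 had 6.18, above the other 5 obese controls at 4.90 to 5.19, and the lowest Lyz2 of its group, 7.52. S100a9, a calcium-binding protein of neutrophils and monocytes, was too dim on average to be among the genes tested. It was at 3.89 and 3.76 in obese controls 4 and 7 and at 4.12 and 3.87 in LA rats 2 and 3, and at most 3.45 in the other rats of both groups. The dimmer S100a8 was at 2.55 and 2.59 in obese controls 4 and 7, below the 2.68 of obese control 8. In LA rats 2 and 3 it was at 2.83 and 2.69, and LA rat 4 also had 2.69. The neutrophil list, with 10 of 11 genes measured, ranged in mean level from 3.22 to 3.48 in lean controls, 3.34 to 3.47 in obese controls, 3.25 to 3.38 in ALA rats and 3.32 to 3.72 in LA rats. The part of blood, neutrophils and muscle damage in the Lyz2 and adaptor levels was not tested.

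LA rat 7, the highest for C1q, also had the highest Adipoq of its group, 7.57, an adipocyte gene, and the highest Lyve1, 7.17, a gene of lymphatic vessels and of perivascular macrophages. In LA rats 6 and 8 Lyve1 was at 6.05 and 6.04, above the other 5 LA rats at 5.13 to 5.56. Adipoq was at 6.29 in LA rat 6 but at 4.80 in LA rat 8, within the 4.04 to 5.36 of the other 5. ALA rat 4 had an Adipoq of 6.14 with a C1q mean of 5.31. The fibroblast list, with all 7 genes measured, ranged in mean level from 6.82 to 7.32 in lean controls, 6.60 to 7.02 in obese controls, 6.61 to 7.51 in ALA rats and 6.48 to 8.52 in LA rats, and was highest in LA rat 7. The adipocyte list, with 6 of 7 genes measured, ranged from 4.52 to 4.81, 4.70 to 5.12, 4.55 to 5.17 and 4.56 to 6.03 in the same groups. The part of connective and fat tissue in the C1q levels was not tested.

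The genes most like the mean of the 8 members were ranked by Pearson r of deviations from group means over 32 rats among 10910 other genes, whose median r was -0.01, and r is given as a description. They were Lrp1, an endocytic receptor (0.87), Gm2a (0.84), Clec4a1 (0.84), Alox5ap, the activating protein of 5-lipoxygenase (0.84), Axl (0.82), Cd74, the invariant chain of MHC class II (0.82), Gda, Bicc1, Timp1 and Tubb2a (0.81 each). Without the 4 named rats only Alox5ap and Cd74 were again among the first 10. The first was then Cd4, with r of 0.78, which rat macrophages express as well as T cells. Cd4 was at 6.25 ± 0.47 (SD, n = 8) in LA rats and 5.78 ± 0.23 in lean controls, and at 7.21 in LA rat 7. Of the lymphocyte genes tested beside it, Cd8a was at 4.13 ± 0.14 in LA rats and 4.02 ± 0.10 in lean controls, and Nkg7 at 4.10 ± 0.13 and 3.91 ± 0.20. Which cells the Cd4 signal came from was not tested. Folr2, a receptor of resident macrophages, had r of 0.70 without the named rats and 0.75 with them.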

How the data were processed

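The authors deposited log2 intensities made with RMA, per the submitters' processing notes, in a table of 36685 features for 32 arrays; the version is not given in the sources used here. Labelled RNA came from 100 ng of total RNA per rat, per the labels' protocols. RMA brings all arrays to one distribution, which takes out any change common to the majority of genes, and it compresses differences of dim features such as Cd68. For each symbol the feature annotated to it alone with the highest mean over 32 arrays was used (14557 genes), the dimmest 25% were left out and 10918 genes were tested. One mean per group was fitted with limma 3.58.1 in R 4.3.3, all groups sharing the variance (28 residual degrees of freedom), with two-sided p-values adjusted by Benjamini-Hochberg over all genes tested. The steps were tested on simulated data with independent normal noise per gene and known shifts in the obese controls. The simulated data held no outlying rats, no correlation between genes and no unequal spread between groups. They therefore do not show how the calls behave with those features. Over all genes tested, differences had a median standard error of 0.0875. Members and gene lists were chosen with earlier results of these data known, so the members' values are not independent support for them. Genes of other lists were named where called, up to 4 with the largest difference, or otherwise as the 2 with the smallest p, markers as levels, and the genes most like the members by the rank of r. Correlations were computed with Python 3.11.15, numpy 2.4.6 and scipy 1.17.1, and figures with matplotlib 3.10.9. Alternatives changed the dim filter, the features, the normalisation, the variance prior, the array weights, the samples and the replicate block. Upstream sequences came from RefSeq.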

Additional observations from a re-analysis of the deposited data

Results flagged for a closer look

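Of 32 groups (8 genes in 4 groups) 2 held a rat whose distance from its nearest neighbour, divided by the range of the group, passed Dixon's 95% limit for 8 samples, and chance alone marks about 1 in 20 such groups. Tyrobp in ALA rat 8 was at 6.10, the highest of the ALA group, with a gap of 0.534 of the range, and this rat was also the highest ALA rat for Lyz2, Fcer1g and Cd68. Cd68 in LA rat 7 was at 4.82, the highest of the LA group, with a gap of 0.529 of the range. Except in C1qa and C1qc, obese controls 4 and 7 were not marked because each is the other's neighbour at the top of the group. In C1qa and C1qc another obese control lay between them, and they were not marked either.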

How the results depend on the processing

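The median difference of the 8 genes kept its direction in all 6 comparisons under every alternative run. It ran from 0.11 to 0.41 in obese against lean controls, from -0.34 to -0.07 in ALA rats against obese controls and from 0.03 to 0.38 in LA rats against obese controls. The values of the other gene lists without named rats were added after seeing the data. Against lean controls, 1 member was called in obese controls and 3 in LA rats. Both counts were 0 with every feature tested. In obese controls the count was also 0 without obese controls 4 and 7 and without all 4 named rats. In LA rats it was 5 with array weights and 1 without LA rats 7 and 8. Single omissions gave 0 to 1 in obese controls and 1 to 5 in LA rats, and the other 4 comparisons had 0 throughout. C1qa in obese against lean controls turned to -0.0305 with array weights and to -0.00427 without obese controls 4 and 7, with or without LA rats 7 and 8. C1qb in ALA rats against obese controls turned to 0.0763 with array weights and 0.102 without obese controls 4 and 7. In LA rats against obese controls Cd68 turned to 0.0970 with array weights, 0.231 without obese controls 4 and 7 and 0.0689 without all 4, and without LA rats 7 and 8 Lyz2, Fcer1g and Tyrobp turned to -0.0292, -0.0290 and -0.0207. Under single omissions C1qa ran from -0.0813 to 0.0847 and C1qb from -0.119 to 0.00982 in ALA rats against obese controls, C1qc from -0.0107 to 0.136 in obese against lean controls, and Lyz2 from -0.113 to 0.125 and Tyrobp from -0.0429 to 0.0725 in ALA rats against lean controls. In LA rats against obese controls Lyz2 ran from -0.0854 to 0.202, Fcer1g from -0.0381 to 0.190, Tyrobp from -0.0375 to 0.177 and Cd68 from -0.184 to 0.0830. None of these turned values was called, and the causes were not tested. C1qb in LA rats against lean controls was not called after centring each array (adjusted p = 0.0508 in limma), with a robust variance prior (0.051) or with only the groups compared (0.106). Over all genes, array weights raised the called counts against lean controls from 192 to 316 in obese controls, 97 to 313 in ALA rats and 177 to 369 in LA rats, and only the groups compared gave 252 in ALA rats. Between LA rats and obese controls, and between ALA and LA rats, 1 gene, no member, was called with no dim filter and with every feature tested. Of 48 pairs of same-numbered rats 17 had a correlation over 0.1, with a median of 0.04 and a range of -0.23 to 0.30. The values ran from 0.005 to 0.19 between ALA and LA rats and from -0.23 to 0.04 between lean controls and LA rats. Differently numbered pairs were not set beside them, so whether same-numbered rats vary together was not tested. With the replicate block the counts of called members were 1 in obese controls and 3 in LA rats against lean controls, and it changed no call. Cd68, the dimmest feature, is the most limited by background, and 8 arrays a group limit the precision of all values.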
